A study of Arabidopsis thaliana with 36 samples.

Results

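The move of wild-type Arabidopsis seeds from stratification to germination conditions was examined in 6 of the 36 RNA-seq libraries of the series. The 3 libraries of Col G12h came from Columbia (Col) seeds kept in the cold and then exposed for 12 h to germination conditions, which were long days in the warm. They were set against the 3 libraries of Col S48h, from Col seeds at 48 h of stratification, the cold period on wet medium that precedes germination. All of these seeds were wild type, had been stored dry after harvest (after-ripened), were sown on 1/2 MS medium and were extracted whole, so embryo and endosperm RNA are mixed. The other Col groups, used here to place genes in time, were mature dry seeds (MS), S12h, S24h and G24h. *h3.3ko*, used to ask whether the same move differed in other libraries, carries CRISPR mutations in HTR4 and HTR5 and a T-DNA insertion in HTR8, the 3 genes for histone variant H3.3, and its seeds were segregants sorted by loss of a rescuing HTR5 transgene. Genes with at least 1 TPM (transcript abundance as a share of the library, scaled for gene length) in 3 or more of the 6 libraries were compared, 16728 of the 27655 in the table. Of these, 14627 had at least 1 TPM in all 6 libraries.

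Temperature, light and hours since sowing all change between S48h and G12h, and their parts in any difference below cannot be told apart. As background, an imbibed seed restarts transcription and translation on stored and new RNA, and after-ripened seeds are kept in the cold so that they germinate in step. In the warm and light, gibberellin (GA) made by the embryo promotes growth and wall loosening and counters abscisic acid (ABA), the hormone that holds seeds dormant. Stored proteins and oil are then broken down, and the radicle elongates and breaks through the endosperm before the seedling turns green.

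Depth was similar in both groups, with 18.45 to 19.15 M reads per library in Col G12h and 18.78 to 19.29 M in Col S48h, worked back from the TPM values. A gene 1 kb long with 3 reads has 0.356 to 0.370 TPM at that depth, which is the level below which a gene could be missed by counting alone. Replicates correlated at 0.992 to 0.996 across genes on the log2(TPM + 1) scale, and each pair differed by more than counting noise, so none was a copy of another. The root mean square distance of the Col G12h libraries from the Col S48h mean was 1.28 to 1.30 log2 units, against 0.105 to 0.139 from their own group's mean for all 6 libraries. Replicate 2 of Col G12h stood apart in heat shock genes, which took 0.401% of its TPM and 0.0793% and 0.150% in the other 2, and results touched by this are given with and without it.

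Between S48h and G12h, 4084 genes rose and 2063 fell. A gene was called where log2(TPM + 1) changed by more than 1 and the limma p, adjusted by Benjamini-Hochberg over all genes tested, was below 0.05, and passing the test means meeting both limits. These were 24.4% and 12.3% of the genes tested and together 36.7%, the background against which every gene group below is read. Changes above 4-fold were found for 1294 higher and 445 lower genes. The median gene was 0.21 log2 units higher at G12h, on a scale in which every library sums to the same total. With quantile normalisation the median became -0.05 and the calls 2902 higher and 2956 lower, with median-of-ratios scaling 3265 and 2363, so the excess of higher over lower genes depends on the scaling. The libraries of the groups did not overlap for 14409 genes (86.1%). Of the genes tested, 1084 entered only through their G12h values, 893 of which were called higher, and 307 only through their S48h values, 218 of which were called lower. No reads at all were recovered at S48h for 76 of the higher genes, and none at G12h for 8 of the lower ones.

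**Figure D1:**
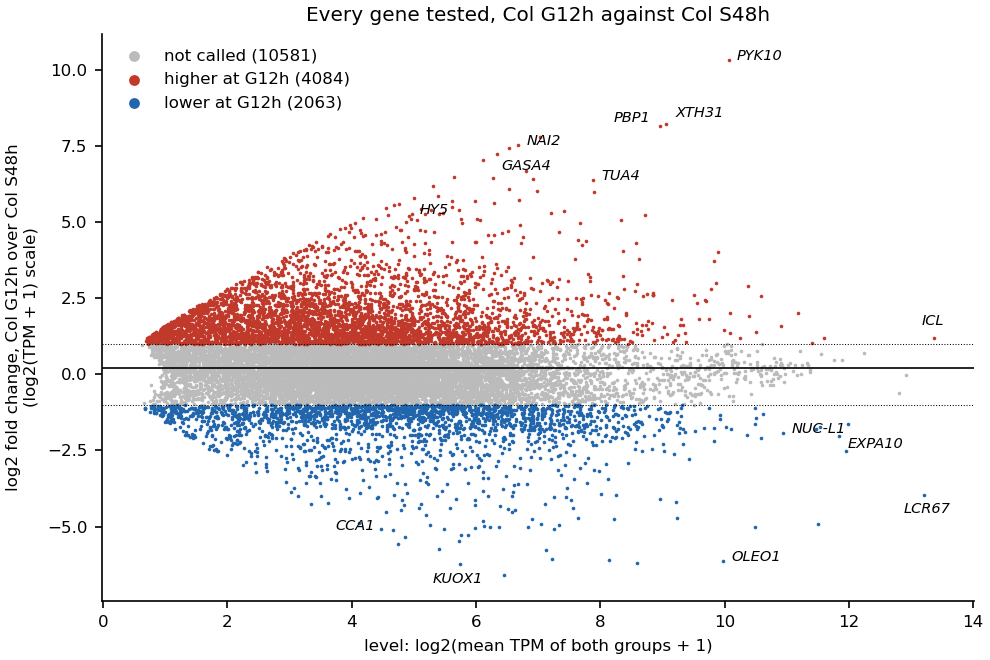
Each point is 1 of the 16728 genes tested, with its level over both groups on the x axis (log2 of the mean TPM + 1) and its log2 fold change, Col G12h over Col S48h, on the y axis. Red marks the 4084 genes called higher, blue the 2063 called lower, the solid line the median of 0.21 and the dotted lines a 2-fold change. PYK10 lies highest and KUOX1 lowest.

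Among the steepest gains were genes of the ER body, a compartment of the endoplasmic reticulum in seedling cells of the mustard family that stores defence β-glucosidases. PYK10, the β-glucosidase that fills ER bodies (chromosome 3, 2840477 to 2843781, 13 exons), had 2206, 1989 and 2226 TPM in Col G12h, against 0.431, 0.739 and 0.812 TPM in Col S48h (log2 fold change 10.34, SE 0.23, adjusted p 1.42e-27). All 3 S48h libraries were below 1 TPM, and the groups were far apart. PBP1, a jacalin-type lectin that binds PYK10, had 965, 984 and 1023 TPM in Col G12h, against 2.79, 2.38 and 2.24 TPM in Col S48h (log2 fold change 8.16, SE 0.10, adjusted p 3.68e-33). NAI2, a structural protein of the ER body, had 208, 189 and 214 TPM in Col G12h, against 0.0464, 0.143 and 0.119 TPM in Col S48h. NAI1, the transcription factor that switches on ER body genes, had 80.5, 82.8 and 81.96 TPM in Col G12h, against 0.405, 0.357 and 0.535 TPM in Col S48h (log2 fold change 5.85, SE 0.09, adjusted p 1.55e-31). The ER body membrane protein MEB1 averaged 70.7 ± 4.28 TPM in Col G12h and 3.59 ± 0.283 TPM in Col S48h (SD, n = 3 here and for every ± below). In these whole seeds, more cells of a type and more RNA per cell cannot be told apart.

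Several of these genes are neighbours on chromosome 3, where nitrile specifier and jacalin lectin genes lie in a row from NSP3 (AT3G16390) to JR1 (AT3G16470). NSP1, which diverts glucosinolate breakdown to nitriles, had 177, 186 and 189 TPM in Col G12h, against 0.0964, 0.0992 and 0 TPM in Col S48h (log2 fold change 7.44, SE 0.11, adjusted p 6.72e-32). The lectin gene JAL34 had 154, 161 and 163 TPM in Col G12h, against 0, 0.143 and 0.0356 TPM in Col S48h. JAL31 had 26.0, 26.2 and 26.4 TPM in Col G12h and no reads in Col S48h, which makes it at least 366-fold higher against a floor of 3 reads over the group. JAL33 was likewise without reads at S48h and at least 265-fold higher. Their neighbours NSP3, NSP4, MLP-300B and JR1 stayed under 0.4 TPM on average in both groups and were not tested, so no rise was called for them. Elsewhere in the genome, the nitrile specifier NSP5 averaged 201 ± 6.33 TPM in Col G12h and 9.09 ± 0.898 TPM in Col S48h. NSP2 moved the other way, with 1.598, 0.576 and 0.385 TPM in Col G12h, against 17.3, 15.5 and 11.9 TPM in Col S48h (log2 fold change -3.14, SE 0.18, adjusted p 1.54e-16). The myrosinase TGG1, which cleaves glucosinolates, averaged 125 ± 9.38 TPM in Col G12h and 33.4 ± 1.68 TPM in Col S48h. In all, 14 of the 15 tested genes of this group were higher and 1, NSP2, lower, and their summed level was 4222 ± 152 TPM in Col G12h and 64.9 ± 1.77 TPM in Col S48h. The list was drawn up after these values had been seen, so its count is a description. The count is also partly set by the filter. PYK10, NAI1, NAI2, NSP1, JAL34, JAL31 and JAL33 were below 1 TPM in every S48h library. They entered only through their G12h values and could only be called higher.

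Other genes with the largest gains had little in common by annotation. XTH31, a xyloglucan-modifying enzyme of the cell wall (chromosome 3, 16446935 to 16448844), had 1129, 983 and 1059.6 TPM in Col G12h, against 1.99, 2.69 and 2.94 TPM in Col S48h (log2 fold change 8.23, SE 0.14, adjusted p 1.3e-30). AT1G29080, a papain-type cysteine protease, had 271, 255 and 252 TPM in Col G12h, against 0.0905, 0.186 and 0.279 TPM in Col S48h. FTM1, of the stearoyl-ACP desaturase family, averaged 220.4 ± 18.6 TPM in Col G12h and 1.19 ± 0.292 TPM in Col S48h. AT3G20370, a TRAF-like protein, averaged 137 ± 7.04 TPM in Col G12h and 0.0599 ± 0.000948 TPM in Col S48h. AT5G23820, with a lipid-recognition domain, averaged 97.8 ± 3.48 TPM in Col G12h and 0.101 ± 0.0345 TPM in Col S48h. Ranked by gain in TPM among called nuclear genes, isocitrate lyase (ICL), the expansin EXPA2, malate synthase (MLS), PYK10 and catalase 2 (AT4G35090) led. Catalase 2 averaged 2889.9 ± 53.9 TPM in Col G12h and 969 ± 36.5 TPM in Col S48h.

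**Figure D2:**
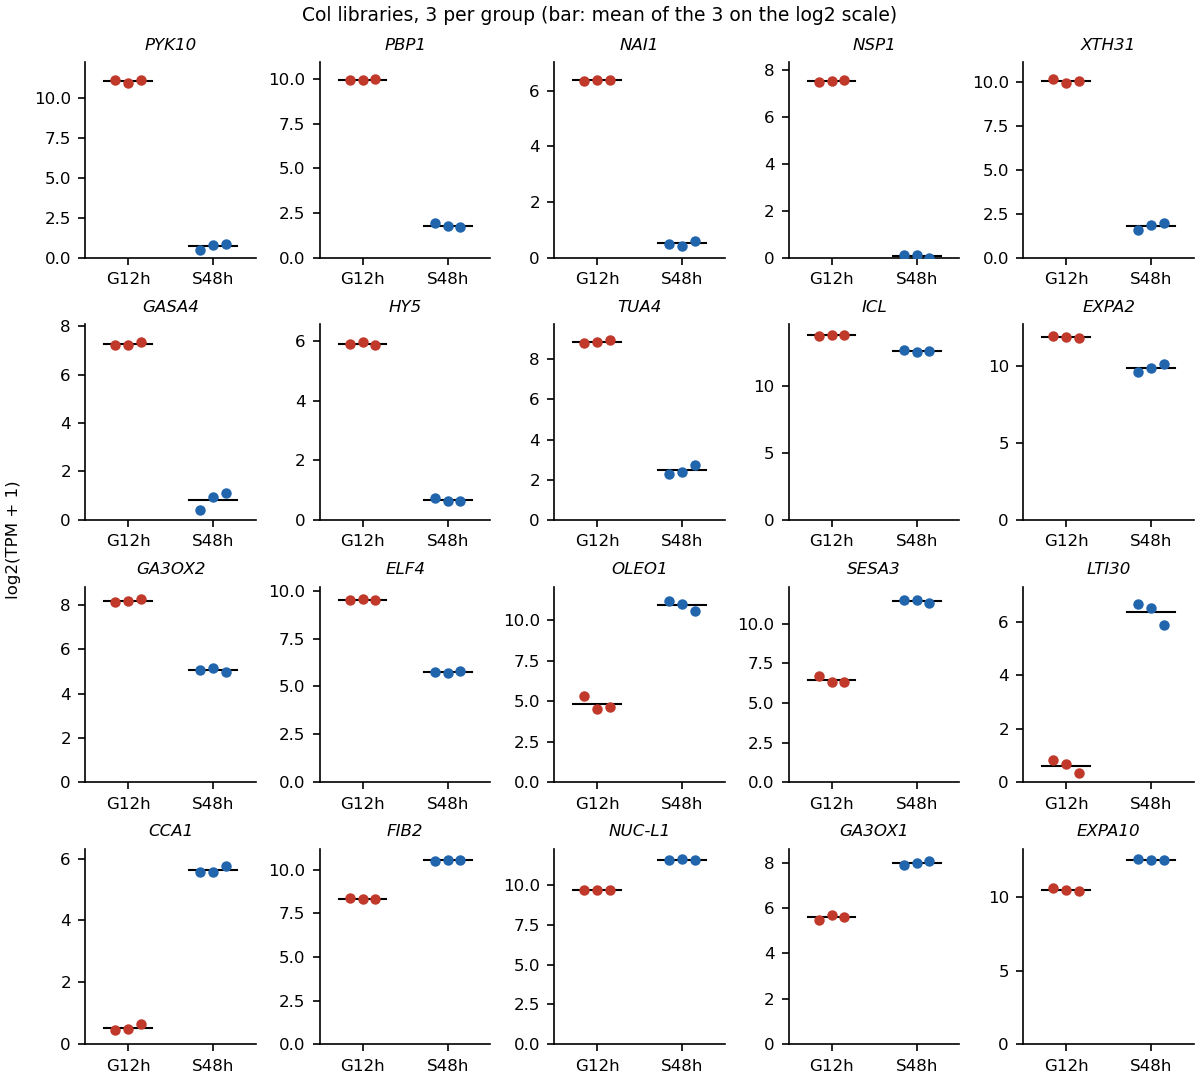
Levels of 20 genes in the single libraries, as log2(TPM + 1), with Col G12h (red) left of Col S48h (blue) and a bar at the mean of each 3 libraries. The groups did not overlap for any of these genes, of which 12 were called higher, from PYK10 to ELF4, and 8 lower, from OLEO1 to EXPA10.

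RNAs of seed storage proteins and oil bodies were mostly lower at G12h. Of 14 such genes, 13 were lower and 1 higher, and the sum was 468 ± 119 TPM in Col G12h and 8572 ± 1121 TPM in Col S48h. OLEO1, the main oleosin that coats oil bodies (chromosome 4, 12900430 to 12901577), had 38.4, 21.5 and 23.5 TPM in Col G12h, against 2327, 2102 and 1533 TPM in Col S48h (log2 fold change -6.13, SE 0.14, adjusted p 2.31e-27). The 12S globulin gene CRU2 had 4.25, 4.06 and 3.86 TPM in Col G12h, against 309, 266 and 248 TPM in Col S48h (log2 fold change -5.76, SE 0.10, adjusted p 1.73e-30). SESA3, a 2S albumin, had 104, 78.1 and 79.6 TPM in Col G12h, against 2917, 2925 and 2556 TPM in Col S48h. The SESA1 to SESA4 genes are near-identical neighbours whose reads can be split between copies. CRA1, another 12S globulin, averaged 66.2 ± 35.6 TPM in Col G12h and 476 ± 68.5 TPM in Col S48h. The exception was OLEO3, with 22.3, 20.95 and 24.4 TPM in Col G12h, against 8.12, 8.77 and 6.81 TPM in Col S48h (log2 fold change 1.41, SE 0.08, adjusted p 4.19e-17). Replicate 1 of Col G12h kept the most of 10 of these 14 RNAs, such as SESA5, which had 50.1, 6.71 and 10.2 TPM in Col G12h, against 231, 206 and 167 TPM in Col S48h.

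The remaining genes with the deepest falls were not of 1 kind. Some were most abundant in mature seeds, such as M10 with a mean of 6709.5 TPM there. Others had risen during stratification, such as KUOX1 with 0.494 TPM in mature seeds. KUOX1, an oxidoreductase named for its induction by karrikins, the germination cues in smoke, had 1.102, 0.7497 and 0.536 TPM in Col G12h, against 169, 152 and 194 TPM in Col S48h (log2 fold change -6.59, SE 0.13, adjusted p 9.27e-29). M10, a late embryogenesis abundant protein, had 9.01, 7.17 and 5.59 TPM in Col G12h, against 639, 565 and 471 TPM in Col S48h. ATL15, a RING-type ubiquitin ligase, had 5.53, 3.08 and 2.16 TPM in Col G12h, against 321, 284 and 274 TPM in Col S48h. AT4G11310, a papain-type protease, averaged 9.43 ± 0.725 TPM in Col G12h and 763 ± 96.1 TPM in Col S48h. AT1G25422 averaged 0.403 ± 0.171 TPM in Col G12h and 105 ± 17.3 TPM in Col S48h, and AT1G77100 had the same direction (log2 fold change -5.59, SE 0.11, adjusted p 4.41e-29). A row of 4 genes on chromosome 4 related to the dormancy gene DOG1 gave 3 lower genes. AT4G18660 had 0.522, 0.596 and 0.0884 TPM in Col G12h, against 61.3, 56.1 and 49.5 TPM in Col S48h. AT4G18680 averaged 1.602 ± 0.722 TPM in Col G12h and 86.2 ± 14.00 TPM in Col S48h. AT4G18690 averaged 1.47 ± 1.17 TPM in Col G12h and 102 ± 14.59 TPM in Col S48h. DOG1 itself averaged 0.0386 TPM in Col G12h and 1.04 TPM in Col S48h and was not tested. This row, too, was chosen after its values were seen. By loss in TPM, the plant defensin LCR67 came first, with 1205, 1136 and 1110.0 TPM in Col G12h, against 19405, 18546 and 15684 TPM in Col S48h (log2 fold change -3.95, SE 0.11, adjusted p 3.79e-25). DGR2, of the DUF642 cell wall family, averaged 1176 ± 103 TPM in Col G12h and 6772 ± 333 TPM in Col S48h. AT1G68250 averaged 184 ± 26.6 TPM in Col G12h and 5643 ± 938 TPM in Col S48h, and the expansins EXPA10 and EXPA1 came next.

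Of 19 genes for turning stored oil into sugar, 9 were higher, none was lower and 10 did not pass the test. Their sum was 29686 ± 696 TPM in Col G12h and 14374 ± 332 TPM in Col S48h. ICL, which opens the glyoxylate cycle in germinating seeds (chromosome 3, 7652487 to 7656053), had 14285, 15057 and 15109 TPM in Col G12h, against 6608, 6226 and 6539.8 TPM in Col S48h (log2 fold change 1.20, SE 0.09, adjusted p 3.09e-14). MLS, the next enzyme of that cycle, had 4194, 4407 and 4333 TPM in Col G12h, against 1872, 1859.6 and 1900.4 TPM in Col S48h. ACX4, of β-oxidation, averaged 395 ± 12.7 TPM in Col G12h and 64.4 ± 1.54 TPM in Col S48h. MFP2, of the same pathway, averaged 1571 ± 66.3 TPM in Col G12h and 606 ± 29.9 TPM in Col S48h. Peroxisomal citrate synthase CSY2 and malate dehydrogenase PMDH2 were higher by 2.18 and 2.33 log2 units. SDP1, the lipase that starts oil breakdown, averaged 84.7 ± 1.09 TPM in Col G12h and 126 ± 3.698 TPM in Col S48h (log2 fold change -0.57, SE 0.12, adjusted p 5.07e-05). PCK1, the enzyme that leads from there to sugar, averaged 2899 ± 89.5 TPM in Col G12h and 2254 ± 90.8 TPM in Col S48h (log2 fold change 0.36, SE 0.09, adjusted p 0.000298). Both stayed within the 2-fold limit.

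Genes for wall loosening moved in both directions within their families. Among α-expansins, which loosen walls without cutting them, 5 of 12 tested were higher and 3 lower, or 3 and 3 under median-of-ratios scaling. EXPA2, the endosperm expansin, had 3982, 3703 and 3549 TPM in Col G12h, against 761, 919 and 1101 TPM in Col S48h (log2 fold change 2.03, SE 0.24, adjusted p 4.76e-09). EXPA10 moved the other way, with 1595, 1399.8 and 1374 TPM in Col G12h, against 5982, 5845 and 5869 TPM in Col S48h (log2 fold change -2.02, SE 0.13, adjusted p 1.98e-15). So did EXPA1, with 2187, 1847 and 1917 TPM in Col G12h, against 5824, 6276 and 6377 TPM in Col S48h. EXPA8 averaged 476 ± 23.2 TPM in Col G12h and 1599.6 ± 49.6 TPM in Col S48h. EXP3 averaged 667 ± 18.4 TPM in Col G12h and 634 ± 9.07 TPM in Col S48h. It stayed within the 2-fold limit, as did EXPA9, at 0.22 log2 units. Summed, α-expansin RNA was 9620 ± 562 TPM in Col G12h and 16254 ± 496 TPM in Col S48h. Of the 17 tested XTH genes, whose enzymes cut and rejoin xyloglucan, 9 were higher and 5 lower. Besides XTH31, XTH5 averaged 316 ± 12.4 TPM in Col G12h and 37.4 ± 4.65 TPM in Col S48h. XTH9 averaged 82.7 ± 2.09 TPM in Col G12h and 21.3 ± 1.77 TPM in Col S48h. XTH16 was higher too, by 1.71 log2 units. XTH19 was lower and averaged 238 ± 9.48 TPM in Col G12h and 792 ± 32.1 TPM in Col S48h. The touch-induced TCH4 averaged 16.8 ± 4.46 TPM in Col G12h and 66.5 ± 11.1 TPM in Col S48h. Of the mannanases, which soften the endosperm wall, MAN6 averaged 29.3 ± 1.53 TPM in Col G12h and 11.19 ± 1.06 TPM in Col S48h. MAN7 stayed within the 2-fold limit (log2 fold change 0.73, SE 0.11, adjusted p 5.5e-07).

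Genes of GA synthesis split by step and by copy. GA3OX2, whose enzyme makes bioactive GA, had 279, 288 and 304 TPM in Col G12h, against 32.3, 34.2 and 30.4 TPM in Col S48h (log2 fold change 3.13, SE 0.12, adjusted p 2.7e-21). GA3OX1, for the same step, had 44.1, 51.5 and 47.1 TPM in Col G12h, against 239, 249.8 and 270.3 TPM in Col S48h (log2 fold change -2.39, SE 0.11, adjusted p 2.45e-19). The preceding oxidase genes were lower. GA20OX2 had 5.696, 5.15 and 4.78 TPM in Col G12h, against 119, 125 and 116 TPM in Col S48h. GA20OX3 averaged 43.04 ± 4.83 TPM in Col G12h and 245 ± 4.99 TPM in Col S48h. GA20OX1 averaged 11.3 ± 0.1998 TPM in Col G12h and 47.8 ± 1.01 TPM in Col S48h. At the first steps, GA2 (ent-kaurene synthase) averaged 4.25 ± 0.625 TPM in Col G12h and 0.697 ± 0.0391 TPM in Col S48h. The receptor gene GID1A averaged 33.3 ± 0.838 TPM in Col G12h and 33.1 ± 1.85 TPM in Col S48h (log2 fold change 0.01, SE 0.07, adjusted p 0.896). The DELLA repressor gene GAI was lower, at 105 ± 5.63 TPM in Col G12h and 258 ± 10.5 TPM in Col S48h. RGL2, the DELLA best known from seeds, averaged 261 ± 8.87 TPM in Col G12h and 250.1 ± 2.702 TPM in Col S48h (log2 fold change 0.06, SE 0.08, adjusted p 0.442). The GA-responsive gene GASA4 had 148, 148 and 161 TPM in Col G12h, against 0.3200, 0.905 and 1.15 TPM in Col S48h (log2 fold change 6.45, SE 0.22, adjusted p 7.44e-23). Another, GASA6, averaged 1539 ± 34.1 TPM in Col G12h and 1433 ± 230.4 TPM in Col S48h (log2 fold change 0.11, SE 0.13, adjusted p 0.409). In all, 3 of 21 tested GA genes were higher and 6 lower.

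ABA genes showed the same mixture, with 4 of 21 higher and 7 lower. NCED6, of the family that makes the committed step to ABA and is known from endosperm, had 0.193, 0.126 and 0.131 TPM in Col G12h, against 32.8, 32.1 and 32.9 TPM in Col S48h (log2 fold change -4.87, SE 0.15, adjusted p 5.94e-24). NCED5 averaged 0.277 ± 0.153 TPM in Col G12h and 8.57 ± 1.37 TPM in Col S48h. NCED9 had 1.95, 9.83 and 2.78 TPM in Col G12h, against 12.1, 17.2 and 12.8 TPM in Col S48h, and its highest G12h value came from replicate 2, without which the log2 fold change was -2.15 in place of -1.59. CYP707A2, the main ABA-degrading enzyme of imbibed seeds, had 4.803, 4.89 and 4.53 TPM in Col G12h, against 71.4, 69.7 and 64.4 TPM in Col S48h (log2 fold change -3.60, SE 0.08, adjusted p 1.46e-27). CYP707A1 moved the other way and averaged 4.43 ± 0.638 TPM in Col G12h and 0.105 ± 0.114 TPM in Col S48h. CYP707A3 was higher as well and averaged 9.11 ± 0.812 TPM in Col G12h and 2.59 ± 0.437 TPM in Col S48h. Among signalling genes, the phosphatase ABI1 averaged 30.4 ± 2.702 TPM in Col G12h and 90.4 ± 4.57 TPM in Col S48h. The kinase OST1 averaged 16.8 ± 0.782 TPM in Col G12h and 2.76 ± 0.252 TPM in Col S48h. The seed transcription factors ABI3, ABI4 and ABI5 stayed within the 2-fold limit, with log2 fold changes of -0.41, -0.79 and 0.18.

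Of 13 tested light signalling genes, 4 were higher and 2 lower, or 4 and 4 with quantile normalisation. HY5, the transcription factor of light-grown seedlings (chromosome 5, 3593335 to 3595073), had 59.6, 62.8 and 57.4 TPM in Col G12h, against 0.683, 0.562 and 0.561 TPM in Col S48h (log2 fold change 5.25, SE 0.12, adjusted p 2.78e-27). Its partner HYH averaged 49.4 ± 1.41 TPM in Col G12h and 39.6 ± 4.87 TPM in Col S48h (log2 fold change 0.32, SE 0.10, adjusted p 0.00569). SPA1, a repressor of light signalling, averaged 27.4 ± 2.85 TPM in Col G12h and 6.26 ± 0.747 TPM in Col S48h. RUP2, a repressor of UV-B signalling, averaged 23.3 ± 2.41 TPM in Col G12h and 3.098 ± 0.233 TPM in Col S48h. PIL5 (PIF1) and SOM, which repress germination in the dark, were lower. PIL5 averaged 67.6 ± 1.46 TPM in Col G12h and 170.2 ± 3.71 TPM in Col S48h. SOM averaged 174 ± 22.2 TPM in Col G12h and 475 ± 42.00 TPM in Col S48h. Flavonoid synthesis, a target of HY5, gave 5 higher and 1 lower of 7 tested genes. F3H had 103, 105 and 100.2 TPM in Col G12h, against 1.84, 1.45 and 1.09 TPM in Col S48h (log2 fold change 5.41, SE 0.11, adjusted p 2.08e-28). Chalcone synthase (TT4) averaged 52.6 ± 1.71 TPM in Col G12h and 1.67 ± 0.262 TPM in Col S48h. Flavonol synthase FLS1 averaged 28.9 ± 1.502 TPM in Col G12h and 0.1803 ± 0.138 TPM in Col S48h. Their regulator MYB12 averaged 2.83 ± 0.259 TPM in Col G12h and 0.0736 ± 0.0358 TPM in Col S48h. The lower gene was TT5, at 1.96 ± 0.3300 TPM in Col G12h and 5.88 ± 1.94 TPM in Col S48h. The anthocyanin branch genes DFR and LDOX were below 0.03 TPM in both groups and not tested.

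RNAs for photosynthesis rose broadly. Of 44 nuclear genes for photosystem, light-harvesting and Rubisco small subunit proteins, 40 did not overlap between groups, close to the 86.1% of all genes that did not. Of the 44, 34 were higher and none lower, or 30 and 0 with quantile normalisation and 25 and 0 with a pseudocount of 5. Their sum was 5023 ± 97.6 TPM in Col G12h and 1290.2 ± 22.04 TPM in Col S48h. RBCS1A, a Rubisco small subunit, had 2079, 2108 and 2163 TPM in Col G12h, against 548, 570.2 and 567 TPM in Col S48h (log2 fold change 1.91, SE 0.08, adjusted p 2.28e-20). PSAD-1, of photosystem I, had 49.3, 58.1 and 54.1 TPM in Col G12h, against 2.41, 1.72 and 2.26 TPM in Col S48h (log2 fold change 4.13, SE 0.14, adjusted p 2.26e-22). PSBP-1, of the oxygen-evolving complex, averaged 112 ± 3.897 TPM in Col G12h and 12.99 ± 0.0652 TPM in Col S48h. The light-harvesting gene LHCB4.1 averaged 128 ± 7.11 TPM in Col G12h and 11.37 ± 1.39 TPM in Col S48h. CAB1 averaged 8.73 ± 0.632 TPM in Col G12h and 2.69 ± 0.3503 TPM in Col S48h. LHCA2 averaged 9.07 ± 0.547 TPM in Col G12h and 0.126 ± 0.109 TPM in Col S48h. In chlorophyll synthesis 6 of 10 were higher and 1 lower, with PORB, the enzyme that reduces protochlorophyllide in the light, at 70.5, 66.6 and 63.3 TPM in Col G12h, against 2.57, 3.74 and 3.73 TPM in Col S48h (log2 fold change 3.97, SE 0.12, adjusted p 2.81e-24). Genes of the chloroplast genome took 1.33, 1.67 and 1.45% of TPM in Col G12h, against 0.269, 0.298 and 0.276% in Col S48h (two-sided exact permutation p 0.1, the smallest that 3 against 3 allow). Of 76 of them, 39 were higher and 2 lower, or 25 and 4 with quantile normalisation and 20 and 0 with a pseudocount of 5. Of 27 mitochondrial genes, 3 were higher and 1 lower, or 2 and 5 with quantile normalisation.

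**Figure D3:**
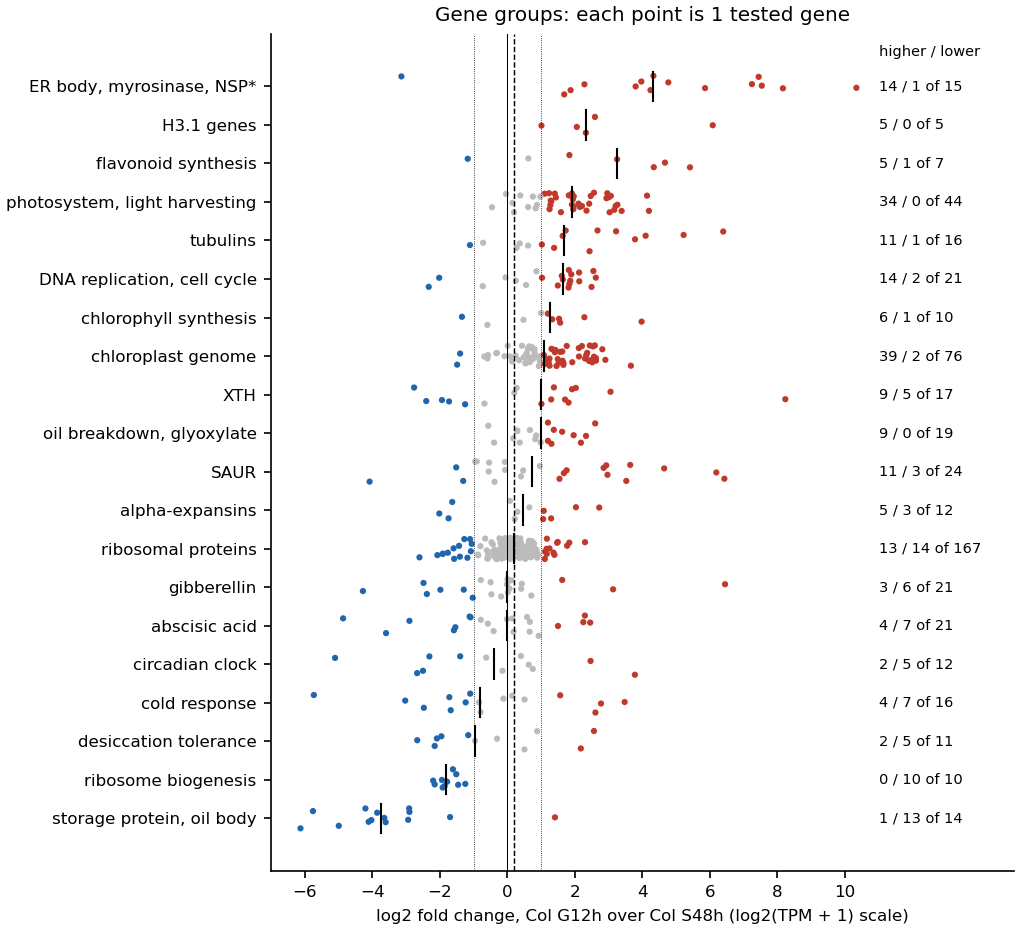
Log2 fold changes, Col G12h over Col S48h, of the tested genes of 20 groups, with 1 point per gene, red where called higher, blue where called lower and grey otherwise. The black bar is the group median, the dashed line the median of all genes, and the numbers give higher and lower calls of the genes tested. All 10 ribosome biogenesis genes lie below 0 and 14 of 15 ER body genes (the group with an asterisk, chosen after its values were seen) above it.

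Clock genes differed between the groups, with 2 of 12 higher and 5 lower, and the hour of day at which seeds were taken is not given in the sources used here. CCA1, a morning-phase repressor, had 0.365, 0.392 and 0.556 TPM in Col G12h, against 45.9, 46.9 and 53.01 TPM in Col S48h (log2 fold change -5.11, SE 0.10, adjusted p 1.38e-28). Its paralogue LHY averaged 3.47 ± 0.442 TPM in Col G12h and 24.3 ± 0.398 TPM in Col S48h. The pseudo-response regulators PRR9, PRR7 and PRR5 were lower too, at -2.68, -2.31 and -1.40 log2 units. The evening genes ELF4 and PCL1 (LUX) were higher. ELF4 had 734, 746 and 731 TPM in Col G12h, against 53.6, 51.2 and 53.96 TPM in Col S48h (log2 fold change 3.77, SE 0.10, adjusted p 5.64e-26). PCL1 had 31.9, 33.4 and 31.3 TPM in Col G12h, against 3.85, 6.45 and 5.04 TPM in Col S48h. TOC1 averaged 35.01 ± 1.13 TPM in Col G12h and 26.3 ± 0.902 TPM in Col S48h (log2 fold change 0.40, SE 0.09, adjusted p 0.000247), within the 2-fold limit, as was GI (log2 fold change 0.63, SE 0.09, adjusted p 1.75e-07).

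Genes known from the cold response leaned downwards when seeds left the cold, but did not all fall. Of 16 tested, 4 were higher (25%, against 24.4% of all genes) and 7 lower (43.75%, against 12.3%). Lower calls were 5 with a pseudocount of 5 and 9 with quantile normalisation. Their median was -0.82, against 0.21 for all genes. The summed level was 2132.6 ± 28.5 TPM in Col G12h and 5436.5 ± 71.6 TPM in Col S48h, with GRP7 the largest part of both. Most of the fall in this sum was that of GRP7, whose values are given below. The cold-shock regulators CBF1, CBF2 and DREB1A (CBF3) were not tested because fewer than 3 of the 6 libraries reached 1 TPM. CBF2 averaged 2.58 TPM in Col G12h and 0.245 TPM in Col S48h. Its G12h mean therefore rests on fewer than 3 libraries, and no rise was called. LTI30, a dehydrin, had 0.751, 0.612 and 0.254 TPM in Col G12h, against 99.1, 90.4 and 57.6 TPM in Col S48h (log2 fold change -5.74, SE 0.14, adjusted p 2.49e-26). LTI30 had already been falling in the cold, with Col means of 1488 TPM in mature seeds, 1086 TPM at S12h and 697 TPM at S24h. The zinc finger genes RHL41 (ZAT12) and STZ (ZAT10) were lower. RHL41 had 5.69, 37.3 and 6.41 TPM in Col G12h, against 88.5, 132 and 85.7 TPM in Col S48h. STZ had 1.12, 5.64 and 0.756 TPM in Col G12h, against 15.6, 17.9 and 12.6 TPM in Col S48h. In both, replicate 2 of G12h was the highest of its group and still below each S48h library. Without it the log2 fold changes were -3.85 for RHL41 and -3.07 for STZ, in place of -3.03 and -2.48. GRP7, an RNA-binding protein induced by cold and under the clock, had 1376, 1389 and 1377 TPM in Col G12h, against 4501, 4594 and 4579 TPM in Col S48h (log2 fold change -1.72, SE 0.07, adjusted p 2.13e-20). The cold-shock domain protein CSDP1 averaged 61.1 ± 2.26 TPM in Col G12h and 198 ± 6.57 TPM in Col S48h. Dehydrins ERD10 and COR47 were higher in the warm. ERD10 had 13.3, 14.9 and 17.3 TPM in Col G12h, against 0.418, 0.4299 and 0.501 TPM in Col S48h. COR47 averaged 172 ± 6.33 TPM in Col G12h and 27.9 ± 6.07 TPM in Col S48h. KIN2 and COR27 were higher as well, by 2.77 and 1.56 log2 units. LTI78 (RD29A) averaged 0.5401 ± 0.241 TPM in Col G12h and 1.69 ± 0.579 TPM in Col S48h (log2 fold change -0.80, SE 0.11, adjusted p 1.29e-07), and counted as lower at -1.51 with a pseudocount of 0.1, at -1.05 after quantile normalisation and at -1.82 with voom on recovered reads.

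The promoters of cold genes were searched on both strands, over 250 bases upstream of the RefSeq gene start, for CCGAC, the core of the CRT/DRE element bound by CBF proteins, and for AAAATATCT, the evening element of clock-controlled genes. CCGAC was present in 5 of the 16 tested cold genes (31.2%), against 13.5% of 16624 promoters of tested genes, and AAAATATCT in 3 of 16 (18.8%) against 2.45%. These matches are descriptions and not sites shown to be bound. Sequences are RefSeq's (TAIR10.1), written 5′ to 3′ on the gene's strand with the motifs in capitals, and they are shown as examples of genes that hold one or the other element. LTI30 and LTI78 carry CCGAC 3 times each, and RHL41 the evening element once.
LTI30 (chr3:18940393-18940642, plus strand): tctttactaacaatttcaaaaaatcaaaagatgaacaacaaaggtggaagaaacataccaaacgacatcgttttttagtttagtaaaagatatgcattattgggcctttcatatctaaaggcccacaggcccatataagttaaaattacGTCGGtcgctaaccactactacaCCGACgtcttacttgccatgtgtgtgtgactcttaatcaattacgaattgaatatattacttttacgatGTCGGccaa
LTI78 (chr5:21240467-21240716, plus strand): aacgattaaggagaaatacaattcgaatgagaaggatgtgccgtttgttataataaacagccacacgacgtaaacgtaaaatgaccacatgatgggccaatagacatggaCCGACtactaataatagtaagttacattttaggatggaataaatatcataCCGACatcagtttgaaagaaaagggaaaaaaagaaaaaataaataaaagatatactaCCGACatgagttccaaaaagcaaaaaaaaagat
RHL41 (chr5:24102564-24102813, plus strand): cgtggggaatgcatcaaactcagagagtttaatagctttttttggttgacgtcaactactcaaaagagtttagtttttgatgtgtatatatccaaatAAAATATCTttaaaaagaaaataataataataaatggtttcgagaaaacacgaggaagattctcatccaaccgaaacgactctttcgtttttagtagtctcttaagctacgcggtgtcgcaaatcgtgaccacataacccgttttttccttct

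Ribosome biogenesis genes fell together. All 10 of the list were lower, and their sum was 3289 ± 61.9 TPM in Col G12h and 11334 ± 100.2 TPM in Col S48h. FIB2, a fibrillarin that methylates ribosomal RNA (chromosome 4, 13074090 to 13076432), had 331, 321 and 319 TPM in Col G12h, against 1472, 1521 and 1487 TPM in Col S48h (log2 fold change -2.20, SE 0.07, adjusted p 4.27e-24). NUC-L1, the nucleolin of the nucleolus, had 832, 822 and 817 TPM in Col G12h, against 3061, 3160.3 and 3142 TPM in Col S48h (log2 fold change -1.92, SE 0.08, adjusted p 5.08e-21). NOP56, of the same particles as fibrillarin, averaged 494 ± 13.1 TPM in Col G12h and 1708 ± 19.3 TPM in Col S48h. AT5G27120, of the NOP56-like family, averaged 318 ± 2.18 TPM in Col G12h and 1158 ± 9.37 TPM in Col S48h. NAP57, the pseudouridine synthase dyskerin, averaged 520.3 ± 41.2 TPM in Col G12h and 1431 ± 22.7 TPM in Col S48h. Genes annotated as ribosomal proteins, 167 tested, had a median of 0.20, next to 0.21 for all genes, with 13 higher and 14 lower, and 8 and 16 under median-of-ratios scaling. Their sum was 116880 ± 2712 TPM in Col G12h and 106050 ± 872 TPM in Col S48h. This list rests on annotation wording alone. It can hold nuclear genes for chloroplast ribosomal proteins and for proteins only related to ribosomal ones, and the members named here were not checked for this. RPL12-A was the first of the higher ones named here, at 677 ± 54.9 TPM in Col G12h and 198 ± 9.86 TPM in Col S48h. RPL15 and RPS9 were higher by 1.49 and 1.16 log2 units. AT3G58660 was lower, at 256 ± 21.1 TPM in Col G12h and 973 ± 6.34 TPM in Col S48h, and AT5G20160 was lower too, at -1.91 log2 units.

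Promoters of these genes were scanned in the same way for AAACCCTA, the telo-box, and GGCCCA, the site II core, which are known from genes of the plant translation machinery. Site II was found in 44.9% of the ribosomal protein genes and in 6 of 10 biogenesis genes, against 18.4% of all. The telo-box was found in 14.4% and in 3 of 10, against 3.84%. Both motifs together were in 3 of the 10 and in 12 of the 167 ribosomal protein genes (7.19%), which as a group did not fall, against 1.19% of all, 1.99% of the lower and 0.594% of the higher genes. Site II alone was as frequent in the lower genes (18.3%) as in all. The promoters of these 3, FIB1, NOP56 and AT5G27120, are shown because all 3 genes fell and hold both motifs. Telo-boxes and site II cores are in capitals.
FIB1 (chr5:21293897-21294146, plus strand): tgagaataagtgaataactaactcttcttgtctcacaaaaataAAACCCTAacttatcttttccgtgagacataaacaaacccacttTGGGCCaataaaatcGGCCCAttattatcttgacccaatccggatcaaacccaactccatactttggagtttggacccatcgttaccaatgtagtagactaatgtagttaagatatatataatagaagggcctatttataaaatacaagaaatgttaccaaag
NOP56 (chr1:20986953-20987202, minus strand): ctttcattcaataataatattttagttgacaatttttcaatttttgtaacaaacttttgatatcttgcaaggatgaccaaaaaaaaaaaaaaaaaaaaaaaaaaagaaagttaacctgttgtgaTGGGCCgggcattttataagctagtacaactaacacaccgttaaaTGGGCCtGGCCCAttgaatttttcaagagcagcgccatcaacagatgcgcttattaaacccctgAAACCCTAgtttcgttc
AT5G27120 (chr5:9540611-9540860, plus strand): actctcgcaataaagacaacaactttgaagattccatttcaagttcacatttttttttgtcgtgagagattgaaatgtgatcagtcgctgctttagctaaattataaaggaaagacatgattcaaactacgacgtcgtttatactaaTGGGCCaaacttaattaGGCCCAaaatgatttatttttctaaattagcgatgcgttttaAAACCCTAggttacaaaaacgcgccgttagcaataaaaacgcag

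Of 21 genes for DNA replication and the cell cycle, 14 were higher and 2 lower. Their summed level was nonetheless lower at G12h, with 600.4 ± 2.15 TPM in Col G12h and 1101 ± 27.5 TPM in Col S48h. The 2 lower genes, for ribonucleotide reductase, were the most abundant of the list at S48h. The helicase subunit PRL (MCM7) had 24.6, 24.9 and 23.8 TPM in Col G12h, against 2.52, 3.45 and 3.54 TPM in Col S48h (log2 fold change 2.62, SE 0.11, adjusted p 1.1e-20). MCM5 averaged 23.5 ± 0.924 TPM in Col G12h and 4.67 ± 0.878 TPM in Col S48h. The sliding clamp PCNA1 averaged 70.4 ± 0.767 TPM in Col G12h and 11.3 ± 1.701 TPM in Col S48h. The D-type cyclins CYCD1;1 and CYCD3;1, which open the cell cycle, were higher. CYCD1;1 averaged 7.89 ± 0.201 TPM in Col G12h and 0.583 ± 0.1102 TPM in Col S48h. CYCD3;1 averaged 7.85 ± 1.01 TPM in Col G12h and 1.39 ± 0.329 TPM in Col S48h. The ribonucleotide reductase genes RNR1 and TSO2 were the lower ones. RNR1, the large subunit, had 58.7, 59.3 and 61.6 TPM in Col G12h, against 304, 306 and 307 TPM in Col S48h. TSO2, a small subunit, had 164, 168 and 160.4 TPM in Col G12h, against 650.1, 677 and 686 TPM in Col S48h. Of the mitotic genes, CDKB2;1 averaged 1.84 ± 0.2601 TPM in Col G12h and 0.965 ± 0.447 TPM in Col S48h. CYCB1;1 averaged 4.605 ± 0.412 TPM in Col G12h and 8.31 ± 0.553 TPM in Col S48h. Both stayed within the 2-fold limit, though CYCB1;1 counted as lower at -1.24 after quantile normalisation and at -1.01 with voom on recovered reads. All 5 genes for the replication histone H3.1 were higher, most of all AT1G09200 with 190.0, 170.4 and 186 TPM in Col G12h, against 2.02, 1.12 and 2.08 TPM in Col S48h (log2 fold change 6.08, SE 0.12, adjusted p 5.28e-29), and their sum was 522 ± 32.8 TPM in Col G12h and 74.2 ± 5.403 TPM in Col S48h. Their copies are near-identical, and AT3G27360 (log2 fold change 1.01, SE 0.13, adjusted p 2.04e-08) lost its call under median-of-ratios scaling (0.82), quantile normalisation (0.64), a pseudocount of 5 (0.68) and voom on recovered reads (0.96), and without replicate 3 of Col G12h (0.86) or replicate 2 of Col S48h (0.99). None of the 3 H3.3 genes passed the test, with a sum of 1371 ± 29.0 TPM in Col G12h and 1057 ± 16.7 TPM in Col S48h.

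Genes for the cytoskeleton, water channels and auxin responses were examined as growth genes. Of 16 tubulin genes 11 were higher and 1 lower. TUA4 had 443, 462 and 488 TPM in Col G12h, against 3.85, 4.21 and 5.69 TPM in Col S48h (log2 fold change 6.39, SE 0.13, adjusted p 2.09e-28). TUA2 averaged 822 ± 15.6 TPM in Col G12h and 21.2 ± 2.18 TPM in Col S48h. TUA6 averaged 1384 ± 10.2 TPM in Col G12h and 256 ± 11.97 TPM in Col S48h. TUB6 averaged 70.8 ± 1.93 TPM in Col G12h and 3.21 ± 0.335 TPM in Col S48h. TUA5 was the lower one, at 217 ± 6.84 TPM in Col G12h and 471 ± 7.53 TPM in Col S48h, and TUA3 and TUA5, like TUA2 and TUA4, are near-identical copies between which reads can be split. Of 14 aquaporins 6 were higher and 2 lower. PIP2A of the plasma membrane averaged 50.2 ± 3.62 TPM in Col G12h and 5.68 ± 1.04 TPM in Col S48h. TIP3;1 of storage vacuoles had 9.95, 1.45 and 1.77 TPM in Col G12h, against 110.1, 91.3 and 67.4 TPM in Col S48h (log2 fold change -4.40, SE 0.29, adjusted p 2.39e-15). Of 24 tested SAUR genes, small auxin-induced genes of elongating tissue, 11 were higher and 3 lower. AT4G34790 had 226, 247 and 241 TPM in Col G12h, against 1.499, 1.85 and 2.002 TPM in Col S48h (log2 fold change 6.43, SE 0.15, adjusted p 8.9e-27). AT5G66260 averaged 76.9 ± 2.94 TPM in Col G12h and 0.0723 ± 0.125 TPM in Col S48h. AT1G17345 was lower and averaged 4.74 ± 0.782 TPM in Col G12h and 95.9 ± 4.54 TPM in Col S48h. AUX/IAA repressors gave 5 higher and 3 lower of 19, or 2 and 3 with quantile normalisation, so no direction is given for them.

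Heat shock genes could not be read without regard to 1 library. HSP101, a disaggregating chaperone, averaged 60.3 ± 81.4 TPM in Col G12h and 4.15 ± 3.66 TPM in Col S48h (log2 fold change 2.83, SE 0.59, adjusted p 6.54e-05). HSP90.1 had 86.1, 459 and 150.1 TPM in Col G12h, against 31.7, 60.7 and 30.9 TPM in Col S48h (log2 fold change 2.19, SE 0.37, adjusted p 2.34e-06). Replicate 2 was the highest of its group for each of the 14 tested genes. With all libraries 3 were higher and 1 lower, with a median log2 fold change of 0.49. Without replicate 2, 2 were higher (HSP101 at 1.67 and HSP90.1 at 1.52) and 3 lower, the median was -0.25, and Hsp70b lost its call at 0.04. Without replicate 1, 6 were higher and 1 lower. The small heat shock gene AT3G46230 was lower with and without replicate 2, at -2.66 and -3.60. What set this library apart was not tested.

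A list of genes for desiccation tolerance and seed chromatin gave 2 of 11 higher and 5 lower. Its summed level was higher at G12h, with 1118 ± 121 TPM in Col G12h and 700.2 ± 104.7 TPM in Col S48h. The dehydrin RAB18 (AT5G66400) averaged 42.8 ± 10.7 TPM in Col G12h and 276 ± 51.2 TPM in Col S48h. GEA6 (EM6) averaged 14.8 ± 3.64 TPM in Col G12h and 59.7 ± 11.23 TPM in Col S48h. LEA4-5 was higher, with 648, 656 and 801 TPM in Col G12h, against 121, 138 and 96.98 TPM in Col S48h (log2 fold change 2.56, SE 0.11, adjusted p 2.24e-20). ECP63 averaged 145 ± 28.98 TPM in Col G12h and 31.3 ± 5.42 TPM in Col S48h. HIS1-3, a stress-induced linker histone, averaged 1.49 ± 0.3301 TPM in Col G12h and 9.62 ± 1.51 TPM in Col S48h.

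Tissue markers were checked because embryo and endosperm are mixed. Of the endosperm list, AT2G27380 (EPR1), an extensin-like gene of the endosperm cap, had 1175, 1229.9 and 1419 TPM in Col G12h, against 4052, 4649 and 4512 TPM in Col S48h (log2 fold change -1.79, SE 0.22, adjusted p 7.75e-09) while EXPA2 rose, and RGE1 (ZOU) was at or near 0. Its summed level was 5128 ± 119.8 TPM in Col G12h and 5397 ± 458 TPM in Col S48h. Epidermal genes were 3 higher of 5, with PDF1 at 403 ± 20.7 TPM in Col G12h and 40.3 ± 5.79 TPM in Col S48h. GL2 averaged 7.39 ± 0.846 TPM in Col G12h and 0.325 ± 0.101 TPM in Col S48h. In the root, SHR averaged 23.6 ± 3.57 TPM in Col G12h and 4.51 ± 0.508 TPM in Col S48h, and the stem cell genes PLT1 and PLT2 stayed within 2-fold at -0.18 and -0.45. Of 3 tested shoot meristem genes only CLV3 was higher, at 5.79 ± 1.02 TPM in Col G12h and 1.63 ± 0.409 TPM in Col S48h, and none with a pseudocount of 5 or after quantile normalisation. The other two, STM and CUC2, were at 0.58 and -0.89, and CUC2 counted as lower with a pseudocount of 0.1, after quantile normalisation and with voom on recovered reads. The root hair genes SHV2 and EXPA7 were at 0 in all 6 libraries, and the root hair regulator RHD6 averaged 20.9 ± 2.43 TPM in Col G12h and 10.4 ± 1.18 TPM in Col S48h (log2 fold change 0.94, SE 0.11, adjusted p 5.95e-09), and just passed the fold limit without replicate 2 of Col G12h. The part of tissue proportions in the results above was not tested.

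Over the 6 Col time points, the highest mean was at G24h for 2330 of the 4084 higher genes (57.1%), at G12h for 1336 (32.7%) and in mature seeds for 250 (6.12%). Over all genes tested these shares were 28.3%, 20.2% and 6.94%, and a gene called higher cannot have its highest mean at S48h, so the shares are partly set by the call. Of the 2063 lower genes, 1082 (52.4%) were highest at S48h, 403 (19.5%) at S24h, 344 (16.7%) at S12h and 190 (9.21%) in mature seeds, and 44 had a still higher mean at G24h. Over all genes tested the shares were 19.5% at S48h, 10.3% at S24h, 14.8% at S12h and 6.94% in mature seeds. A gene called lower cannot have its highest mean at G12h, so these shares too are partly set by the call. PYK10 had a mean of 4768 TPM at G24h, and XTH31 one of 272 TPM there. EXPA10 averaged 0.121 TPM in mature seeds, 1333 TPM in S24h seeds, 5899 TPM in S48h seeds and 103 TPM in G24h seeds, so its top was in the cold. OLEO1 had 22838 TPM in mature seeds, 11752 at S24h, 1988 at S48h and 27.8 at G12h. Ribosome biogenesis RNA summed to 328 TPM in mature seeds, 1852 TPM in S12h, 5790.2 TPM in S24h, 11334 TPM in S48h, 3289 TPM in G12h and 3099 TPM in G24h seeds. ELF4 was highest of the 6 at G12h, with 737 TPM, and had 13.6 TPM at G24h, when CCA1 had 41.6 TPM.

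**Figure D4:**
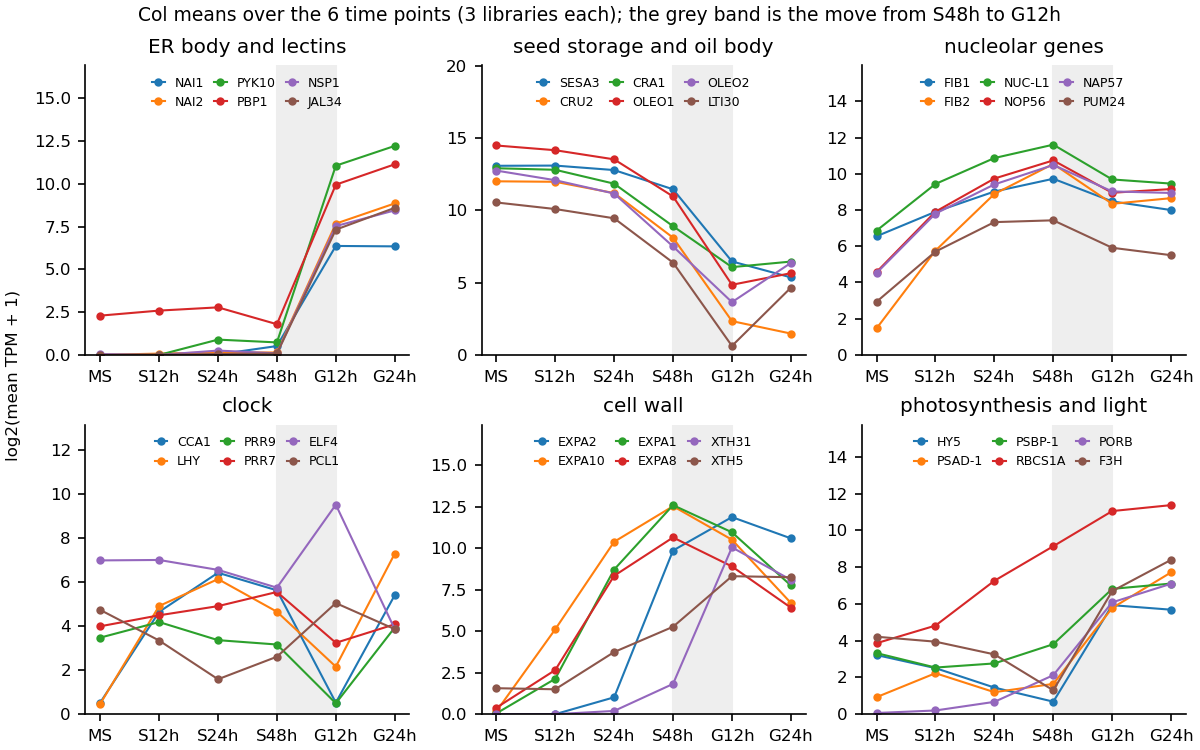
Group means in Col over the 6 time points, as log2(mean TPM + 1), from mature seeds to G24h, with a grey band over the move from S48h to G12h. ER body genes go up across the band, storage and nucleolar genes go down across it, and EXPA1, EXPA8 and EXPA10 have their top at its left edge.

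The same move in *h3.3ko* seeds was measured in 6 separate libraries. There 1632 genes were higher (9.76%) and 1056 lower (6.31%) at G12h than at S48h. The study reports that by G24h Col seeds had finished germinating and *h3.3ko* seeds had not, so equal hours need not be equal stages. Of the Col higher genes 1029 were also higher in *h3.3ko*, which is 25.2% of the Col and 63.05% of the *h3.3ko* list, and 472 were lower in both, 22.88% and 44.7%. The change itself differed between genotypes for 4750 genes (28.4%), more positive in *h3.3ko* for 1608 (9.61%) and less so for 3142 (18.8%). This balance depends on the scaling, with 2149 and 2334 after quantile normalisation and 1943 and 2522 under median-of-ratios scaling. For PYK10 the *h3.3ko* means were 61.7 ± 16.3 TPM in *h3.3ko* G12h and 0.1601 ± 0.114 TPM in *h3.3ko* S48h, and the difference of the changes was -4.61, SE 0.32, adjusted p 5.19e-14. PYK10 was named for its large change in Col, which is subtracted here, so the sign is partly set by that choice. GASA4 averaged 3.49 ± 0.908 TPM in *h3.3ko* G12h and 6.05 ± 0.785 TPM in *h3.3ko* S48h, with a difference of -7.11, SE 0.30, adjusted p 2.79e-19. OLEO1 averaged 5475 ± 513 TPM in *h3.3ko* G12h and 9825 ± 225 TPM in *h3.3ko* S48h. GASA3, of the same family as GASA4, averaged 1234 ± 124 TPM in *h3.3ko* G12h and 499 ± 61.1 TPM in *h3.3ko* S48h. In Col it averaged 4.07 ± 1.86 TPM in Col G12h and 159 ± 23.6 TPM in Col S48h.

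Some gene groups differed between the genotypes. Of the 167 ribosomal protein genes 74 were higher and none lower in *h3.3ko*, with 53 more positive than in Col in the test of the difference. Their sum in *h3.3ko* was 69286 ± 3586 TPM at G12h and 34016 ± 102 TPM at S48h, both below the Col sums given above. In Col the sum was 39768 ± 1019 TPM at S24h and 106050 ± 872 TPM at S48h, so it had already risen before this move. XTH genes gave 1 higher and 9 lower of 17 in *h3.3ko*, and 10 differed downwards from Col. For EXPA2 the log2 change was larger in *h3.3ko*, at 351 ± 66.7 TPM in *h3.3ko* G12h and 13.6 ± 5.31 TPM in *h3.3ko* S48h, with a difference of 2.6 on the log2 scale that passed the test. Its level was lower there than in Col, where it averaged 3745 TPM at G12h and 927 TPM at S48h. For MLS and catalase 2 (AT4G35090) the differences of 0.14 and -0.14 did not pass the test. AT4G18660, of the DOG1-related row, averaged 5.16 ± 0.562 TPM in *h3.3ko* G12h and 217 ± 45.4 TPM in *h3.3ko* S48h, and its difference of 0.22 did not pass the test.

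**Figure D5:**
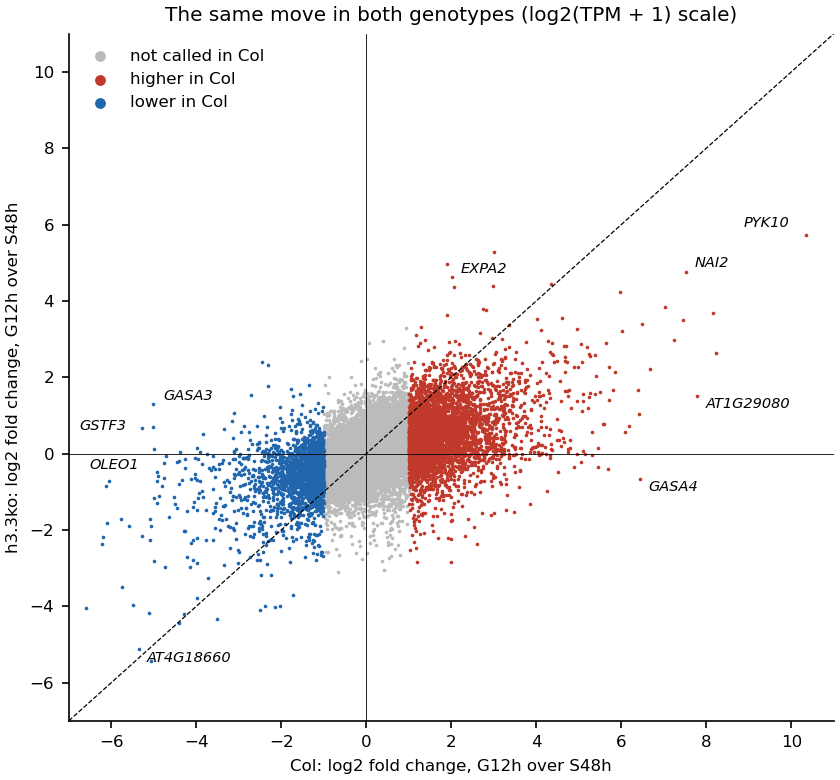
The log2 fold change, G12h over S48h, of each gene tested, in Col on the x axis and in *h3.3ko* on the y axis, coloured by the Col call. The dashed line marks equal change. PYK10 lies below it, and GASA3, which was lower in Col and higher in *h3.3ko*, lies above it.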

How the data were processed

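Seeds of Col and *h3.3ko* were sequenced in 36 libraries, 3 for each of 12 groups of genotype and time, which the study describes as independent biological replicates. The authors trimmed reads with fastp 0.20.1, aligned them to TAIR10 with HISAT2 2.1.10, counted them with HTSeq 0.11.2 and deposited TPM values, which sum to the same total in each library. The deposited TPM were scaled by the whole gene span, introns included, so genes with long introns read low. The library kit does not mark strand, so overlapping and antisense genes cannot be separated.

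Genes with at least 1 TPM in 3 or more of the 6 Col G12h and Col S48h libraries were tested with limma 3.58.1 in R 4.3.3 on log2(TPM + 1), which understates the change of low genes. The fit held all 12 groups with a trend in the variance, and p-values were adjusted by Benjamini-Hochberg over 16728 genes. The same fit gave the *h3.3ko* change and the test of its difference from the Col change. Reads were recovered from TPM times span for 27442 genes, whole within a tolerance of 0.02 of a read, and gave depths and floors of 3 reads, which cover counting error only. The fit was tested on simulated data.

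Named genes were nuclear: the top 10 risers and top 10 fallers by fold (called, non-overlapping libraries, a mean of 5 TPM or more in whichever group was higher), the 5 largest gains and losses in TPM, the members of gene lists with the largest changes or founding roles, and the 3 largest differences between genotypes in each direction. The members and lists were chosen with earlier results of these data known. The scans of biogenesis promoters were added later, and some promoter sequences are not reported here. Other pseudocounts, filters, scalings, voom on recovered reads, a replicate block and leaving out each library were tried.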

Additional observations from a re-analysis of the deposited data

Results flagged for a closer look

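The change between G12h and S48h differed between *h3.3ko* and Col by the interaction test of the limma fit. Over all genes tested the change was more positive in *h3.3ko* for 1608 genes and less positive for 3142, or 2149 and 2334 after quantile normalisation, so the balance depends on the scaling. Values below are log2 differences, the *h3.3ko* change minus the Col change, each past an adjusted p of 0.05 and a 2-fold difference. Most of these genes were named for a large change in Col, which is subtracted here, and the rest for the difference itself. Their signs and sizes are therefore partly set by the choice of genes.

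Negative differences were found for PYK10 -4.61, XTH31 -5.6, PBP1 -4.47, AT1G29080 -6.27, NAI2 -2.76, NSP1 -3.94, JAL34 -4.26, AT3G20370 -3.2, FTM1 -4.45, AT5G23820 -3.09, EXPA10 -1.97, GASA4 -7.11 and AT4G01700 -6.08. Unlike the others in this group, EXPA10 had fallen in Col, and it fell by a larger factor in *h3.3ko*.

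Positive differences were found for KUOX1 2.56, AT1G25422 3.85, AT4G11310 4.01, OLEO1 5.29, M10 4.29, ATL15 5.36, CRU2 4.04, LTI30 2.25, AT1G77100 3.68, AT4G18690 1.52, EXPA2 2.6, LCR67 3.81, AT1G68250 4.45, GASA3 6.34, GSTF3 5.96 and AT5G55050 5.73. EXPA2 had risen in Col, from 927 to 3745 TPM, and rose by a larger factor but to a lower level in *h3.3ko*, from 13.6 to 351 TPM. Most of the others are genes that fell in Col.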

How the results depend on the processing

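No named gene called in the main fit reversed its direction under the alternatives that gave it a value. For named genes not called there, the direction was not compared. Of 168 named genes, 154 kept their side of the threshold in those alternatives, where a mean of at least 5 TPM left values for 149. A pseudocount of 5 gave 2392 higher and 1321 lower genes in Col, 831 and 625 in *h3.3ko*, and 977 and 1778 for the difference between genotypes. With voom on recovered reads, 2510 genes differed upwards and 3177 downwards in *h3.3ko*, and 4022 were higher and 2830 lower in Col. Leaving out 1 library at a time gave 4060 to 4165 higher and 2037 to 2091 lower genes in Col. Calls of CAB1, GA2, CLV3 and MYB12 were lost with a pseudocount of 5 and after quantile normalisation, those of TT5, CYP707A1 and CYP707A3 with the pseudocount alone, that of TUA5 after quantile normalisation and that of RPS9 under median-of-ratios scaling. The cause was not tested.

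With the replicate number as a replicate block the counts were 4084 higher and 2063 lower. Same-numbered libraries of Col G12h and Col S48h correlated in their deviations at 0.115, 0.148 and 0.0104, so the numbers were not taken as pairs. Genes near 1 TPM are limited by depth, since 3 reads correspond to 0.356 to 0.370 TPM for a gene of 1 kb.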
